A study of Drosophila melanogaster with 4 samples.

Results

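Septate junctions are the ladder-like contacts that seal the space between neighbouring cells in insect epithelia, much as tight junctions do in vertebrates. The 10 genes described here, cora, Nrx-IV, Nrg, dlg1, sinu, kune, Cont, Lac, Tsf2 and scrib, encode adhesion molecules, claudins and scaffolds of that barrier. They were chosen by name, as FlyBase symbols matched to the gene IDs of the count files, and all 10 were found among the 17559 genes counted. They were measured by poly(A) RNA-seq in 4 Drosophila melanogaster libraries, each made from 150 pairs of testes with the seminal vesicle attached. The study set testes with germ line knockdown of Caf40, which belongs to the main mRNA deadenylase, CCR4-NOT, beside bam mutant testes. The stated aim was to check that the knockdown had lowered its target. It also reported similar RNA levels of the gene how and more bam mRNA in the knockdown. The same libraries are used here for the barrier genes.

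The 2 bam mutant libraries came from males of genotype bam1/bam86 by the labels, written bam1/bamΔ86 in the study's methods, which also list CyO, a second-chromosome balancer. Columns that the authors deposited for these libraries are headed with WT and 0hrsPHS instead, and the labels were followed here without a means to settle the difference. These males were kept at 22 °C until pupal stages, given 30 min at 37 °C without carrying a heat-shock transgene, returned to 25 °C and dissected 48 h later. The 2 Caf40 knockdown libraries came from Caf40RNAi(BL67987)/nosGAL4 males, moved from 25 °C to 29 °C after 3 days and taken for dissection at an adult age of 0 to 2 days. The labels give that age for the knockdown alone. The study's methods give it for the dissected males without setting the groups apart. nosGAL4 drives the hairpin in the earliest germ cells, stem cells among them, and the study's methods give UAS-Dicer2 in the driver strains. Genotype, strain, temperature and heat shock differed together between the groups and cannot be told apart. Each library pooled many males, and nothing in the sources says whether the replicates came from separate crosses, so the p-values here measure the spread between these libraries.

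In the testis of the fruit fly, a pair of somatic cyst cells wraps each clone of germ cells and travels with it as it differentiates. Septate junctions form between these cyst cells and, as the cyst matures, close off its interior from the outside. A core complex holds the junction: Nrx-IV, Cont and Nrg form the adhesive part, the claudins sinu and kune lie in the membrane, and cora anchors the complex on the cytoplasmic face. scrib and dlg1 belong instead to the basolateral polarity module, which marks out the side of the cell where the junction is built and which acts in many cell types besides epithelia.

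Gene counts totalled 118209171 and 95125694 for the bam mutant, against 30411385 and 26984758 for the knockdown. Caf40, listed under the symbol Rcd-1, stood at 204 and 207 CPM (the count as a share of the library after TMM scaling, in units of 1e-06) in the bam mutant and at 13.5 and 16.2 CPM in the knockdown, so the hairpin's target followed the labels. bam itself was at 20.8 and 20.7 CPM in its mutant against 267 and 249 CPM. The study proposes, as a likely part of the reason, that a mutant allele used lacks most of the coding sequence, which was not tested here. All 11 germline markers matched and all 7 cyst cell markers were detected in every library. Accessory gland markers summed to 306 CPM in knockdown replicate 1 and to between 44.3 and 69.9 CPM in the other libraries. Knockdown replicate 1 thus held the most transcript of seminal fluid genes. Most of the bam mutant sums came from a single gene, Dup99B, with 61.6 CPM in replicate 1 and 50.7 CPM in replicate 2. Its knockdown values were 3.22 and 8.65 CPM. Dup99B is named for the ejaculatory duct, so the sums of this list do not measure accessory gland transcript alone. For 8 other markers of the list, both knockdown libraries lay above both bam mutant libraries, which was so for 41.4% of all genes tested. Knockdown replicate 2 was thus raised as well for these markers. The lowest count of any barrier gene in any library was 809, so none of the values below was limited by low counts.

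Of the 10 barrier genes, 8 were lower in the Caf40 knockdown and 2, dlg1 and scrib, were not called in either direction. The 8 fell between 1.38-fold (Nrg) and 4.51-fold (Lac), and none of the 10 was called higher, 0 also at an unadjusted p under 0.05 in edgeR and 0 by DESeq2. A call means an adjusted p-value under 0.05 by the quasi-likelihood test of edgeR, with the Benjamini-Hochberg method applied over all 10854 genes tested. Of all those genes 63.7% were called, 33.0% lower and 30.7% higher, and with scaling to germline markers, described below, higher genes fell from 48.2% to 9.38% of the calls. The median log2 fold change was -1.10 over the 10 barrier genes and 0.03 over all genes tested. In 8 barrier genes both knockdown libraries lay below both bam mutant libraries, which was so for 42.0% of all genes tested. The 10 genes together took 0.238% and 0.247% of the gene counts in the bam mutant, against 0.147% and 0.151% in the knockdown. In whole testes, fewer cells of a type and less RNA per cell cannot be told apart.

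**Figure D1:**
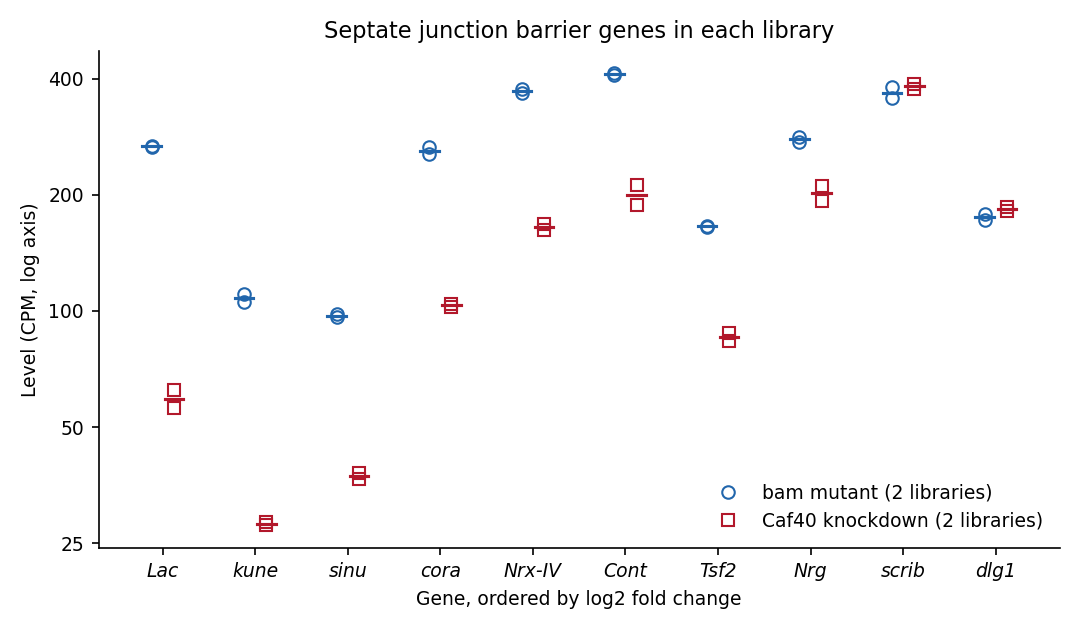
Level of each barrier gene in each of the 4 libraries, in CPM on a log axis, with genes ordered from the largest decrease to none. Circles are the bam mutant libraries, squares the Caf40 knockdown libraries, and short lines the means of 2. The groups stand well apart from Lac to Nrg and come together at scrib and dlg1, where all values lie between 356 and 388 CPM and between 173 and 186 CPM.

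The largest decrease was in Lac (FBgn0010238, chromosome 2R, 12453190 to 12465630, plus strand, BDGP6), which encodes Lachesin, an immunoglobulin-domain protein tethered to the outer face of the membrane and needed for the tracheal barrier of the embryo. Lac stood at 267 and 267 CPM in the bam mutant, against 62.4 and 56.1 CPM for the knockdown. The replicates of either genotype were close and the groups far apart. Its log2 fold change was -2.17 (SE 0.07, 95% confidence interval -2.35 to -1.99, adjusted p 3.07e-05, edgeR), which left 22.2% of the bam mutant level. Of all genes tested, 5.98% had a lower log2 fold change than Lac.

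The claudins kune and sinu, four-pass membrane proteins related to those of vertebrate tight junctions, followed. kune (FBgn0033032, chromosome 2R, 5671741 to 5672800, plus strand), whose annotated transcript is a single exon, stood at 111 and 106 CPM in the bam mutant and at 28.4 and 27.9 CPM in the knockdown. This was a log2 fold change of -1.94 (SE 0.06, interval -2.09 to -1.80, adjusted p 2.58e-05, edgeR). sinu (FBgn0010894, chromosome 3L, 5559470 to 5561598, minus strand) was at 98.0 and 96.7 CPM and at 38.1 and 36.8 CPM, a log2 fold change of -1.38 (SE 0.05, interval -1.51 to -1.24, adjusted p 3.84e-05, edgeR). The intervals of the 2 claudins did not overlap, so kune fell further than sinu. Per kilobase of exon, kune was 2.21 and 2.13 times sinu in the bam mutant libraries and 1.45 and 1.48 times sinu in the knockdown libraries. Another claudin of the junction, pck (megatrachea), fell by 1.03 on the log2 scale, from 80.4 and 80.5 CPM to 41.4 and 37.4 CPM.

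cora (FBgn0010434, chromosome 2R, 19229063 to 19243751, plus strand) encodes Coracle, the FERM-domain homolog of protein 4.1 that binds the cytoplasmic tail of Nrx-IV. Its level was 255 and 265 CPM in the bam mutant and 102 and 104 CPM in the knockdown. The 2 knockdown libraries differed by 1.76% of their mean, less than the 3.97% between the bam mutant libraries, and the groups did not overlap. The log2 fold change was -1.33 (SE 0.06, interval -1.47 to -1.19, adjusted p 4.48e-05, edgeR).

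The adhesion complex of Nrx-IV, Cont and Nrg fell by unequal amounts. Nrx-IV (FBgn0013997, chromosome 3L, 12146519 to 12156990, plus strand), the fly relative of vertebrate Caspr, stood at 368 and 375 CPM in the bam mutant and at 168 and 162 CPM in the knockdown. Its log2 fold change was -1.17 (SE 0.06, interval -1.32 to -1.02, adjusted p 7.09e-05, edgeR). Cont (FBgn0037240, chromosome 3R, 4381306 to 4387018, plus strand), the contactin that partners Nrx-IV, was at 413 and 409 CPM and at 212 and 188 CPM. Its log2 fold change was -1.04 (SE 0.08, interval -1.23 to -0.85, adjusted p 0.000215, edgeR), and its knockdown libraries were the least alike of any barrier gene, 11.7% of their mean apart. The intervals of Nrx-IV and Cont overlapped, and Nrx-IV stood at 0.822 and 0.846 times Cont per kilobase in the bam mutant and at 0.732 and 0.794 times in the knockdown.

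Nrg (FBgn0264975, chromosome X, 8517373 to 8555170, plus strand) encodes Neuroglian, the L1-type adhesion molecule, which besides its epithelial form has a neuronal one. It stood at 275 and 283 CPM in the bam mutant and at 210.3 and 193 CPM in the knockdown. The groups did not overlap, but the difference was the smallest among the called members, with a log2 fold change of -0.47 (SE 0.07, interval -0.64 to -0.30, adjusted p 0.00224, edgeR). Its interval lay apart from those of Nrx-IV and Cont. Nrg thus went from 0.316 and 0.329 times Cont per kilobase in the bam mutant to 0.472 and 0.486 times in the knockdown. Counts per gene do not separate the epithelial from the neuronal transcript, of the 9 transcripts annotated.

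Tsf2 (FBgn0036299, chromosome 3L, 12530436 to 12533724, minus strand) encodes Melanotransferrin, an iron-binding protein that joins the junction complex as it assembles. It stood at 166 and 165 CPM in the bam mutant and at 87.6 and 83.4 CPM in the knockdown. The bam mutant libraries lay 0.191% of their mean apart, and the knockdown held 51.7% of the bam mutant level, with a log2 fold change of -0.95 (SE 0.05, interval -1.09 to -0.82, adjusted p 9.49e-05, edgeR). Among its relatives, the circulating transferrin Tsf1 was at -0.39 (adjusted p 0.0404, edgeR) and Tsf3 at -2.10 (adjusted p 0.000365, edgeR) on the log2 scale. Tsf1 stood at 25.8 and 28.8 CPM in the bam mutant and at 18.4 and 23.2 CPM in the knockdown, and it was no longer called under 5 of the alternatives tried. Of 5 paralogs of barrier genes, 3 were called lower (Tsf3, metro at -1.41 and Tsf1) and 2 were not called, where 33.0% of all genes tested were called lower.

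The polarity scaffolds behaved otherwise. dlg1 (FBgn0001624, chromosome X, 11369665 to 11409776, plus strand), the Discs large guanylate-kinase scaffold, stood at 173 and 178 CPM in the bam mutant and at 186 and 181 CPM in the knockdown. scrib (FBgn0263289, chromosome 3R, 26536350 to 26604051, plus strand), whose product Scribble carries leucine-rich repeats and PDZ domains, was at 356 and 380 CPM and at 388 and 375 CPM. For dlg1 the groups were close but did not overlap, and for scrib they overlapped. The log2 fold changes were 0.07 for dlg1 (SE 0.05, interval -0.07 to 0.20, adjusted p 0.314, edgeR) and 0.05 for scrib (SE 0.07, interval -0.11 to 0.22, adjusted p 0.508, edgeR). Under this scaling the intervals reach no further than a change of 0.22 in either direction, and neither overlaps the interval of any of the 8 called members. With scaling to germline markers, however, both were called lower, dlg1 at -0.60 and scrib at -0.61. With upper quartile scaling both were called higher, at 0.21 and 0.20.

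The ratio of scrib to dlg1 per kilobase was the steadiest of the pairs set side by side, at 1.38 and 1.43 in the bam mutant, against 1.40 and 1.38 for the knockdown. scrib relative to cora went from 0.491 and 0.503 to 1.33 and 1.26 per kilobase, a rise in the ratio. Which gene lay higher in the bam mutant depended on the exon lengths used. In CPM scrib, at 356 and 380, was above cora, at 255 and 265, in the bam mutant already. Such ratios within a library do not depend on its scaling. The remaining gene of the polarity module, l(2)gl, did fall, by 0.70 on the log2 scale (342 and 332 CPM to 214 and 201 CPM, adjusted p 0.000407, edgeR), and its interval, -0.86 to -0.54, lay apart from those of scrib and dlg1.

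**Figure D2:**
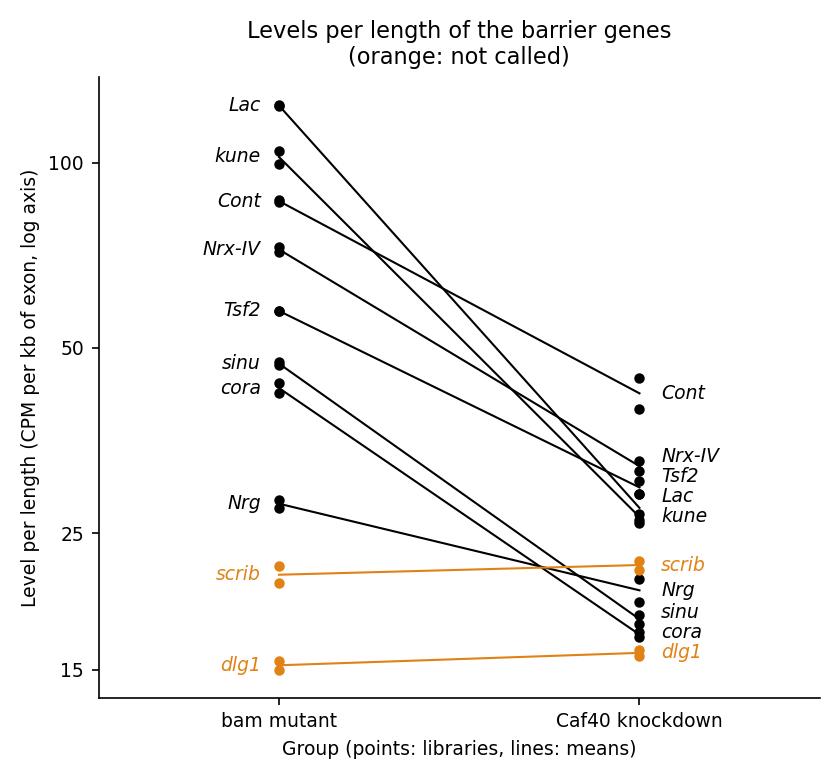
Level of each barrier gene per length, in CPM per kb of annotated exon on a log axis, in the bam mutant (left) and the Caf40 knockdown (right). Points are libraries and lines join the group means, with the 2 genes that were not called in orange. The means run from 15.2 to 124 in the bam mutant, against 15.97 to 42.2 for the knockdown.

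Levels of different genes were compared per kilobase of annotated exon. In the bam mutant the order from highest was Lac at 124, kune at 102, Cont at 86.6, Nrx-IV at 72.3, Tsf2 at 57.4, sinu at 47.1, cora at 43.0, Nrg at 27.9, scrib at 21.4 and dlg1 at 15.2 CPM per kb. No neighbours in that order overlapped between the libraries. In the knockdown Cont came first at 42.2, followed by Nrx-IV at 32.1, Tsf2 at 29.7, Lac at 27.5, kune at 26.6, scrib at 22.2, Nrg at 20.2, sinu at 18.1, cora at 17.1 and dlg1 at 15.97 CPM per kb. There Tsf2 overlapped Lac and Lac overlapped kune, so their order was not resolved. Lac and kune, the most abundant of the barrier transcripts in the bam mutant, thus came level with the middle of the set. The exon lengths are unions over all annotated transcripts, 17.2 kb over 18 transcripts for scrib and 11.5 kb over 21 for dlg1, so the levels per length of these genes are understated where short transcripts prevail.

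The barrier genes lie on 4 chromosome arms. The 3 on 2R, cora, kune and Lac, had log2 fold changes of -1.33, -1.94 and -2.17, against a median of 0.02 over the 2173 genes tested on that arm. The 3L members, Nrx-IV, sinu and Tsf2, were at -1.17, -1.38 and -0.95 against an arm median of 0.05. On 3R, where bam also lies, Cont and scrib were at -1.04 and 0.05 (arm median 0.09), and on the X chromosome Nrg and dlg1 were at -0.47 and 0.07 (arm median -0.02). No barrier gene shared exon bases with another annotated gene.

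To place these genes within the junction, a list of 16 other genes of the pleated septate junction, the form found in ectodermal epithelia, was examined. Like the members, it was chosen with earlier results of these data known. All 16 were called lower, with log2 fold changes whose median was -1.26 and whose range was from -2.17 to -0.29, against 33.0% called lower among all genes tested. Both sodium pump subunits of the junction fell. Atpalpha, the catalytic subunit, went from 1106 and 1173 CPM to 315 and 274 CPM, and nrv2, the beta subunit that serves the barrier, from 317 and 324 CPM to 85.9 and 72.7 CPM. Their log2 fold changes were -1.95 (SE 0.09, adjusted p 6.59e-05, edgeR) and -2.01 (SE 0.09, adjusted p 5.55e-05, edgeR). vari, a guanylate-kinase scaffold of the core complex, was at -1.38, and Fas3, a homophilic adhesion molecule that also marks the hub of the testis, at -1.77 on the log2 scale.

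The Ly6 proteins, small membrane-anchored proteins needed for junction assembly, fell by unequal amounts on the log2 scale. bou was at -2.17, with 21.5 and 20.8 CPM in the bam mutant and 4.89 and 4.51 CPM in the knockdown. cold was at -1.23, crim at -0.88 and crok at -0.81. The assembly factors pasi1 and pasi2, which span the membrane, were at -0.94 and -0.87, and udt, also required for the barrier, was at -1.26. At the tricellular corners, where 3 cells meet, Gli was at -1.91, M6 at -1.27 and bark (Anakonda) at -1.26. The smallest decrease was in Mcr, a complement-like protein of the core complex, from 419 and 420 CPM to 371 and 316 CPM (log2 fold change -0.29, interval -0.52 to -0.06, adjusted p 0.0374, edgeR), and its call was lost with upper quartile scaling (-0.14, adjusted p 0.0595).

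**Figure D3:**
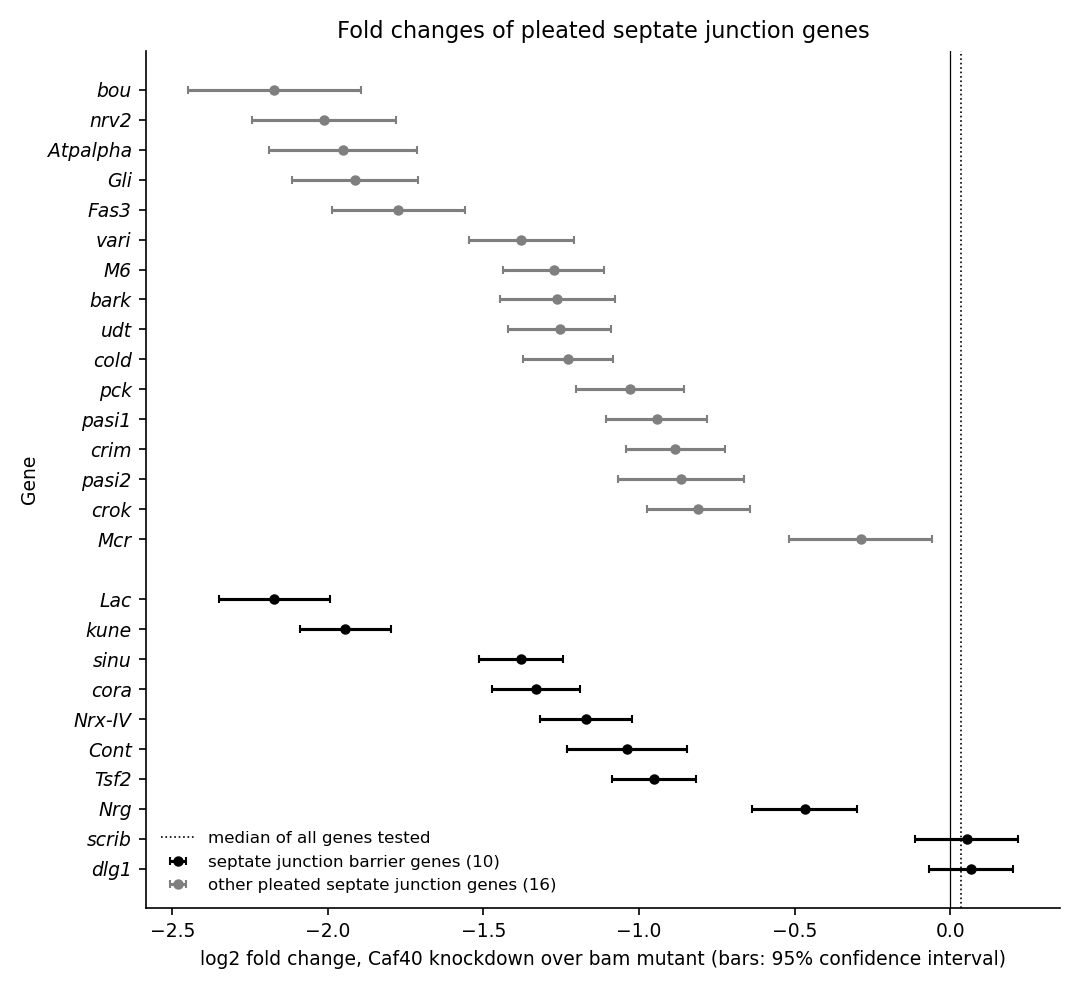
Log2 fold change of the 10 barrier genes (black) and of 16 other genes of the pleated septate junction (grey) in the Caf40 knockdown over the bam mutant, with 95% confidence intervals. The dotted line is the median of all genes tested, 0.03. All values but those of scrib and dlg1 lie below 0 with intervals clear of it.

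Genes of the smooth septate junction, the form of the midgut and renal tubules, were examined next. Ssk stood at 28.4 and 32.4 CPM in the bam mutant and 14.7 and 14.5 CPM in the knockdown, while Tsp2A, mesh and hoka were at most at 10.8 CPM in any library. All 4 were called lower, against 33.0% of all genes tested. The log2 fold changes were -0.61 for mesh, -1.06 for Ssk, -2.21 for Tsp2A and -4.47 for hoka. The call for mesh did not hold under 4 of the alternatives tried. In the knockdown hoka rested on 6 and 6 counts and Tsp2A on 19 and 21.

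Of 10 further genes of cell polarity, 8 were called lower and 2 higher, with a median log2 fold change of -0.67. Of all genes tested, 33.0% were called lower and 30.7% higher. The apical determinants crb, sdt and par-6 were at -1.19, -1.08 and -0.88, and the tumour suppressor gene l(2)gl at -0.70. yrt, which encodes a FERM protein related to Coracle and acts at the same side of the cell, rose from 103 and 104 CPM to 172 and 171 CPM (log2 fold change 0.73, SE 0.05, adjusted p 0.000160, edgeR), but with scaling to germline markers it was at 0.06 and not called. Patj was called higher at 0.17 and turned to -0.49 with that scaling, and its call was also lost with no filter (0.024), without bam mutant replicate 1 (0.080) or 2 (0.088) and without knockdown replicate 1 (0.096). Of 5 ankyrin and spectrin genes, whose products belong to the membrane skeleton, Ank was called lower at -0.30. Ank2, alpha-Spec and kst were called higher at 0.85, 0.32 and 0.31, of which alpha-Spec and kst turned to -0.34 and -0.36 with scaling to germline markers. Ank2, at no more than 2.89 CPM in any library, lost its call with that scaling (0.18), with no filter (0.70), with a replicate block (0.84) and without bam mutant replicate 1 (0.72) or 2 (0.80). beta-Spec was at -0.11 and not called.

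Markers of the cell types in the tissue moved as well, and their part in these results was not tested. The counts of calls that follow stand beside 33.0% called lower and 30.7% called higher among all genes tested. The 7 cyst cell markers had a median log2 fold change of -1.20, close in size to that of the barrier genes, with 5 called lower, 1 higher and 1 not called. Six4, eya, so and tj were at -3.13, -1.87, -1.35 and -1.20, while zfh1 was at 0.21 and not called and chinmo was called higher at 0.66, although with scaling to germline markers chinmo was at -0.0022. The 7 summed to 357 and 374 CPM in the bam mutant and to 290 and 263 CPM in the knockdown. The 11 germline markers were all called higher, with a median of 0.61, spn-E, AGO3, bgcn and krimp highest at 1.10, 0.91, 0.89 and 0.78, and sums of 2131 and 2079 CPM in the bam mutant and 3503 and 3187 CPM in the knockdown. The 4 hemocyte markers Hml, NimC1, Pxn and eater were all called lower, at -2.94, -2.59, -2.52 and -1.94, summing to 470.2 and 376 CPM and to 79.0 and 57.8 CPM. Of 9 muscle markers 7 were called lower (median -0.87), led by Tm2, Mf, Mlc1 and up at -1.03, -0.98, -0.93 and -0.91. Mhc and sls were not called, at -0.34 and 0.24, and sls lay higher in both knockdown libraries than in either bam mutant library. Of 4 hub markers hh, CadN and Socs36E were called lower, at -1.70, -0.93 and -0.44. The other, upd1, was at 0.007 and not called, and rested on 6 and 18 counts in the knockdown. Of 9 tested genes of the accessory gland list 8 were called higher, led by Acp26Aa, Acp62F, Acp53Ea and Acp26Ab at 5.67, 5.62, 5.45 and 5.24. Dup99B, named for the ejaculatory duct, was called lower at -3.25.

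Nerve and glia also use these genes. Their markers are again set beside 33.0% called lower and 30.7% called higher among all genes tested. Of 6 glia markers 3 were called lower (median -0.93), and the 6 summed to 525 and 527 CPM in the bam mutant, against 151 and 126 CPM for the knockdown. Eaat1, a glutamate transporter gene, went from 106 and 115.1 CPM to 9.97 and 12.02 CPM (log2 fold change -3.33), and Gs2, a glutamine synthetase gene, from 163 and 146 CPM to 82.3 and 64.9 CPM (-1.07). repo, the defining glial transcription factor gene, was at 0.133 to 0.238 CPM and not called. moody, a receptor needed for the glial barrier, went from 250.2 and 260 CPM to 55.0 and 45.4 CPM (-2.34). Of 5 neuron markers, nSyb, a synaptic vesicle protein gene, was called lower, from 43.0 and 47.1 CPM to 2.19 and 2.03 CPM (-4.41), and Rdl was called higher, at no more than 0.299 CPM in any library. elav was at 11.05 to 12.2 CPM, and brp and Syt1 at no more than 1.05 CPM, none of them called. The 6 neuron markers matched, among them VGlut, which was not tested, summed to 55.7 and 59.9 CPM in the bam mutant. In the knockdown they summed to 15.02 and 16.3 CPM. nSyb gave 43.0 and 47.1 CPM of the bam mutant sums and 2.19 and 2.03 CPM of the knockdown sums. The part of nerve and glia in the barrier gene results was not tested. Of 3 tracheal markers 1, serp, was called lower, at 14.9 and 17.9 CPM and at 7.31 and 12.2 CPM.

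**Figure D4:**
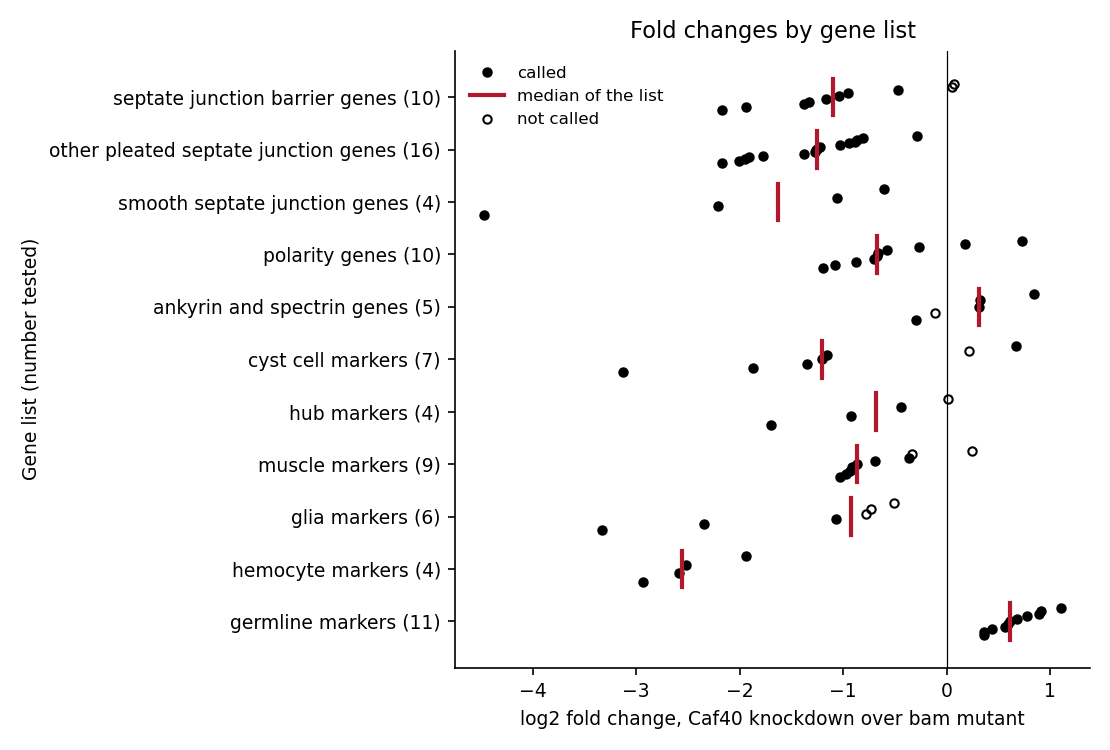
Log2 fold change of each tested gene in the Caf40 knockdown over the bam mutant, by list, with the number tested. Filled points were called, open points were not, and red bars are list medians. The medians of the barrier genes, of the other pleated septate junction genes and of the cyst cell markers are -1.10, -1.26 and -1.20, and that of the germline markers is 0.61. Those of the hub, muscle, glia and hemocyte markers are -0.68, -0.87, -0.93 and -2.55. Those of the smooth septate junction, polarity, and ankyrin and spectrin genes are -1.64, -0.67 and 0.31.

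The genes whose profile over the 4 libraries lay nearest the mean of the barrier genes were sought across all others tested, as the distance between log2 levels centred on each gene's mean. The nearest 5 were Mdh2, which encodes a mitochondrial malate dehydrogenase, FBgn0038220, CG15706, Kdsr and Pax, at distances of 0.016 to 0.037 on the log2 scale. With 2 libraries a group, this profile is mainly a step between the genotypes, and these genes had log2 fold changes from -1.05 to -1.01. Of the other pleated septate junction genes, pck was nearest, at place 16 of 10844, followed by pasi1 at place 128. The farthest were nrv2 at place 3977 and bou at place 4897, so the list as a whole was not close to this profile.

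The 8 called members were called lower under each of the 14 alternatives, with adjusted p-values up to 0.00386. Leaving out any 1 library, knockdown replicate 1 with its accessory gland transcripts included, gave 8 called lower and none higher among the 10, and 16 of 16 called lower among the other pleated septate junction genes. These fits leave 1 library in a group, so the spread came from the other group alone and the lone library was assumed to vary like it. Knockdown replicate 2, kept when replicate 1 was left out, also held more of 8 accessory gland transcripts than either bam mutant library. The adjusted p-values of the 8 members, by edgeR, then ran from 0.00085 to 0.0037 without a bam mutant library and from 2.4e-13 to 7.4e-05 without a knockdown library, so they depended on which group gave the spread.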

How the data were processed

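Poly(A) RNA was sequenced from 2 bam mutant and 2 Caf40 knockdown libraries. The authors trimmed reads with Trim Galore, aligned pairs to dm6 (BDGP6) with STAR and deposited raw counts per gene for either strand and unstranded. Versions and annotation release are not given in the sources used here. Counts on the strand read by the directional kit were used, since the other strand held 2.47% to 2.54%. STAR's summary entries (26.9% to 30.8% of pairs, mostly unmapped) were left out. Of the authors' other deposited files, a results table of their own DESeq2 comparison, with fold changes and p-values, and a table of normalised counts with 4 per-sample columns were not used, the latter because its bam mutant columns are headed with WT and 0hrsPHS, which do not match the labels.

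Genes kept by filterByExpr were scaled by TMM and tested with edgeR 4.0.16 (quasi-likelihood, group as the only term, two-sided) in R 4.3.3, with Benjamini-Hochberg adjustment over all genes. Standard errors were derived from the F statistic. With 2 libraries against 2, an exact permutation test of one gene cannot go below p = 0.333. Replicates differed by far more than counting error (chi-square per degree of freedom 27.7 and 19.0), so none was counted as a copy.

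Symbols (found for 17253 IDs), coordinates and exon lengths came from Ensembl release 115 and the gene tables supplied. 3 listed markers (vas, wupA, btl) were not matched. Members and lists were chosen with earlier results of these data known. Named genes were all members, all other pleated septate junction genes and, in other lists, the called genes with the largest changes (up to 4 a direction). zfh1, mesh, repo, elav, brp, Syt1, beta-Spec, Mhc, sls, upd1 and those named for their loss of a call were added after values were seen. Alternatives covered scaling (DESeq2 1.42.0 size factors, upper quartile, library size, 11 germline markers), DESeq2's test, filters, unstranded counts, thinned bam mutant libraries, a replicate block and leaving out each library.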

Additional observations from a re-analysis of the deposited data

Results flagged for a closer look

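Reads on the strand opposite to a gene were not part of the comparisons above. For sinu and Tsf2 the level on that strand in CPM, though not the raw count, was higher in both knockdown libraries than in either bam mutant library. For sinu they were 12 and 10 counts in the bam mutant, against 9 and 9 for the knockdown, which is a mean of 0.107 CPM against 0.305 CPM. For Tsf2 they were 78 and 84 counts against 41 and 35, a mean of 0.795 CPM against 1.28 CPM, or 0.414% and 0.542% of the gene's stranded counts against 1.53% and 1.43%. No annotated gene overlaps either on the other strand. The difference was not tested, and the other 8 barrier genes did not show it.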

How the results depend on the processing

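The 8 members called lower kept their call and direction under each of the 14 alternatives, with Lac between -2.84 and -2.03 and Nrg between -1.14 and -0.32. The values of dlg1 and scrib, near 0, took their sign from the scaling. With scaling to germline markers, which shifted the median of all genes by -0.67, they were at -0.60 and -0.61 and all 10 members were called lower. With upper quartile scaling (shift 0.15) they were at 0.21 and 0.20 and 2 members were called higher, and with library size alone dlg1 was at 0.16 and 1 member was called higher. With no filter beyond 1 count they were at -0.082 and -0.10, not called. Without 1 library dlg1 ranged from -0.043 to 0.086 and scrib from -0.080 to 0.078.

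The median of the members was -0.96 with upper quartile scaling, -1.01 with library size alone, -1.77 with scaling to germline markers, -1.25 with no filter beyond 1 count, -1.13 with unstranded counts, and -1.21 to -1.05 without 1 library. Over all genes, scaling to germline markers gave 740 higher and 7153 lower calls against 3329 and 3583, and leaving out 1 library gave 1915 to 4042 higher and 3068 to 4233 lower. Without bam mutant replicate 1 or 2 the higher calls were 2057 and 1915.

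Other genes that changed sign were Patj (-0.49), alpha-Spec (-0.34), kst (-0.36), zfh1 (-0.46) and chinmo (-0.0022) with scaling to germline markers, beta-Spec (0.036) and CASK (0.026) with upper quartile scaling, and zfh1 without Caf40 knockdown replicate 1 (-0.0066, against up to 0.36 without another library). The cause was not tested beyond the shift that a scaling itself imposes.

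The groups share replicate numbers, and the deviations of same-numbered libraries correlated at 0.26 across genes, with 2 pairs. A replicate block gave 3258 higher and 3534 lower calls, 8 of 10 members called lower and a median of the members within the replicate spread of the main value.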
